A study of Mus musculus with 15 samples.

Results

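The colony-stimulating factors and their receptors were followed as a set of 8 genes in mouse bone marrow-derived macrophages (BMDMs). The members were given by name and are the ligands *Csf1*, *Csf2* and *Csf3* and the receptor chains *Csf1r*, *Csf2ra*, *Csf2rb*, *Csf2rb2* and *Csf3r*, which are 8 of the 51763 genes counted. All 8 were among the 16919 genes that passed the filter on low counts, *Csf2* and *Csf3* through the groups in which they had counts. The 15 RNA-Seq libraries formed 5 groups of 3. PBS was the unstimulated control. Either HMGB1 form was added at 5 µg/mL, as the fully reduced protein (frHMGB1) or as the disulfide form (dsHMGB1). Another group received LPS at 1 µg/mL, and the last LPS together with IFNγ at 20 ng/mL (LPS/IFNγ). For LPS/IFNγ, the study's methods and one field of the sample records give 100 ng/mL LPS, while another field gives 1 µg/mL. By the methods, LPS/IFNγ thus differs from LPS alone in its lower LPS dose as well as in IFNγ. In every comparison of these groups, dose and IFNγ cannot be told apart. HMGB1 is a nuclear protein that acts as an alarm signal when it leaves the cell, in forms that differ in the redox state of its cysteines. The frHMGB1 preparation carried a calmodulin-binding tag. By the methods, frHMGB1 was made in buffers with the reducing agent DTT, and dsHMGB1, a gift from another laboratory, in buffers without it. No PBS control with DTT is named. Between the HMGB1 groups, redox form, DTT and source cannot be told apart. All groups came from wild-type female C57BL/6NTac mice of 8 to 10 weeks, were grown for 10 days in 10 ng/mL M-CSF according to the sample records, were re-seeded in medium with 1% serum for which no M-CSF is named, and were stimulated for 24 h. The cells of 5 mice were pooled before seeding, so the 3 libraries of a group are technical replicates, and every error and p-value covers the spread between wells and libraries and not between mice.

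M-CSF, the product of *Csf1*, keeps macrophages alive and lets them divide through the receptor tyrosine kinase CSF1R. GM-CSF (*Csf2*) acts through an alpha chain that binds it (*Csf2ra*) and a beta chain that signals through JAK2 and STAT5 (*Csf2rb*), and G-CSF (*Csf3*) drives neutrophil production through CSF3R. Activated macrophages are known sources of all 3 factors, while resting macrophages depend on M-CSF made by other cells.

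Total counts were 40934540 to 80925478 per library. PBS replicate 3 stood apart from its group: across genes its log2 CPM correlated with PBS replicates 1 and 2 at r = 0.939 and 0.934, against 0.987 to 0.993 for the other pairs within groups, and the 6 members with counts in PBS lay at 0.548 to 0.727 times the mean of the other PBS libraries. Results of the members that rest on this library are given with and without it. For single genes of the lists below they are given with it only, and some of these genes spread widely in PBS. The 8 macrophage markers checked, led by *Lyz2*, summed to 20863 to 23586.5 CPM in PBS, 24596 to 24841.5 in frHMGB1, 18128 to 20008 with dsHMGB1, 15810.1 to 16548 with LPS and 13156 to 13551 with LPS/IFNγ. Of 12 neutrophil markers 3 passed the filter, the list summed to 13.4 to 30.05 CPM, and *Ly6g*, *Mpo*, *Retnlg* and *S100a9* had 0 counts in every library. Fibroblast markers summed to 148 to 358 CPM in PBS and 231 to 315 in the stimulated libraries. Dendritic cell markers summed to 4.11 to 5.17 CPM in PBS, 3.35 to 4.40 in frHMGB1 and dsHMGB1, 7.81 to 8.62 with LPS and 13.8 to 14.95 in LPS/IFNγ. Endothelial markers summed to 11.7 to 30.8 CPM in PBS, 62.8 to 81.4 in dsHMGB1 and LPS and 98.9 to 104 in LPS/IFNγ, almost all of it *Kdr*. T and NK, B and mast cell lists summed to 8.25 CPM or less in every library. Their part in the results was not tested, and in bulk RNA a change in the share of cells of a type cannot be told apart from a change of RNA per cell.

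*Csf1* rose in dsHMGB1, LPS and LPS/IFNγ, *Csf2* was highest with LPS alone, the beta chains *Csf2rb* and *Csf2rb2* rose with LPS/IFNγ, *Csf2ra* rose in every stimulation, and *Csf1r* fell in LPS and LPS/IFNγ. Calls are those of edgeR's quasi-likelihood test with a Benjamini-Hochberg adjusted p under 0.05 over all tested genes, and fold changes with their standard errors (SE) are DESeq2's on the log2 scale. Against PBS, 1 member was called higher and 0 lower in frHMGB1, where 7% of all tested genes were called, 1.31% higher and 5.69% lower. With dsHMGB1 it was 4 higher and 0 lower, beside 47.4% of all genes (23.3% higher, 24.2% lower). LPS gave 5 higher and 1 lower, beside 62.9% of all genes (26.7% higher, 36.2% lower). LPS/IFNγ gave 6 higher and 1 lower, beside 60.3% (29% higher, 31.2% lower). Over the 6 members with counts in PBS, the median log2 fold change was 0.11, 0.35, 0.40 and 1.61 in that order, beside -0.01, -0.10, -0.21 and -0.12 for all tested genes. Between the stimulations, 1 member was called higher and 3 lower in dsHMGB1 than in LPS, beside 26.4% of all genes (15.8% higher, 10.6% lower). Set against LPS/IFNγ, dsHMGB1 had 1 member higher and 4 lower, beside 33.2% (16.5% higher, 16.7% lower). In LPS/IFNγ, 2 were higher and 2 lower than in LPS, beside 25.7% (16.3% higher, 9.36% lower). With frHMGB1 as the reference, dsHMGB1 had 3 higher and 0 lower, beside 50.8% (27.7% higher, 23.1% lower). On that reference LPS had 3 higher and 1 lower, beside 53.6% (25.5% higher, 28% lower), and LPS/IFNγ 5 higher and 1 lower, beside 64.2% (33.8% higher, 30.4% lower). The comparisons with PBS share the PBS libraries and are not independent of each other. *Csf2* and *Csf3* had 0 counts in PBS and frHMGB1 and passed the filter only through the other groups. Against these references they could be called higher only. Both are among the members called higher in dsHMGB1, LPS and LPS/IFNγ against either reference, and the shares of all genes do not allow for this. Against PBS without its replicate 3, frHMGB1 had 3 members called, dsHMGB1 had 7, and LPS and LPS/IFNγ had 8 each. Calls over all genes rose in that fit too for frHMGB1, as given at the end. For the other groups against PBS they are not given, so these counts are not read as a result about the members.

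**Figure D1:**
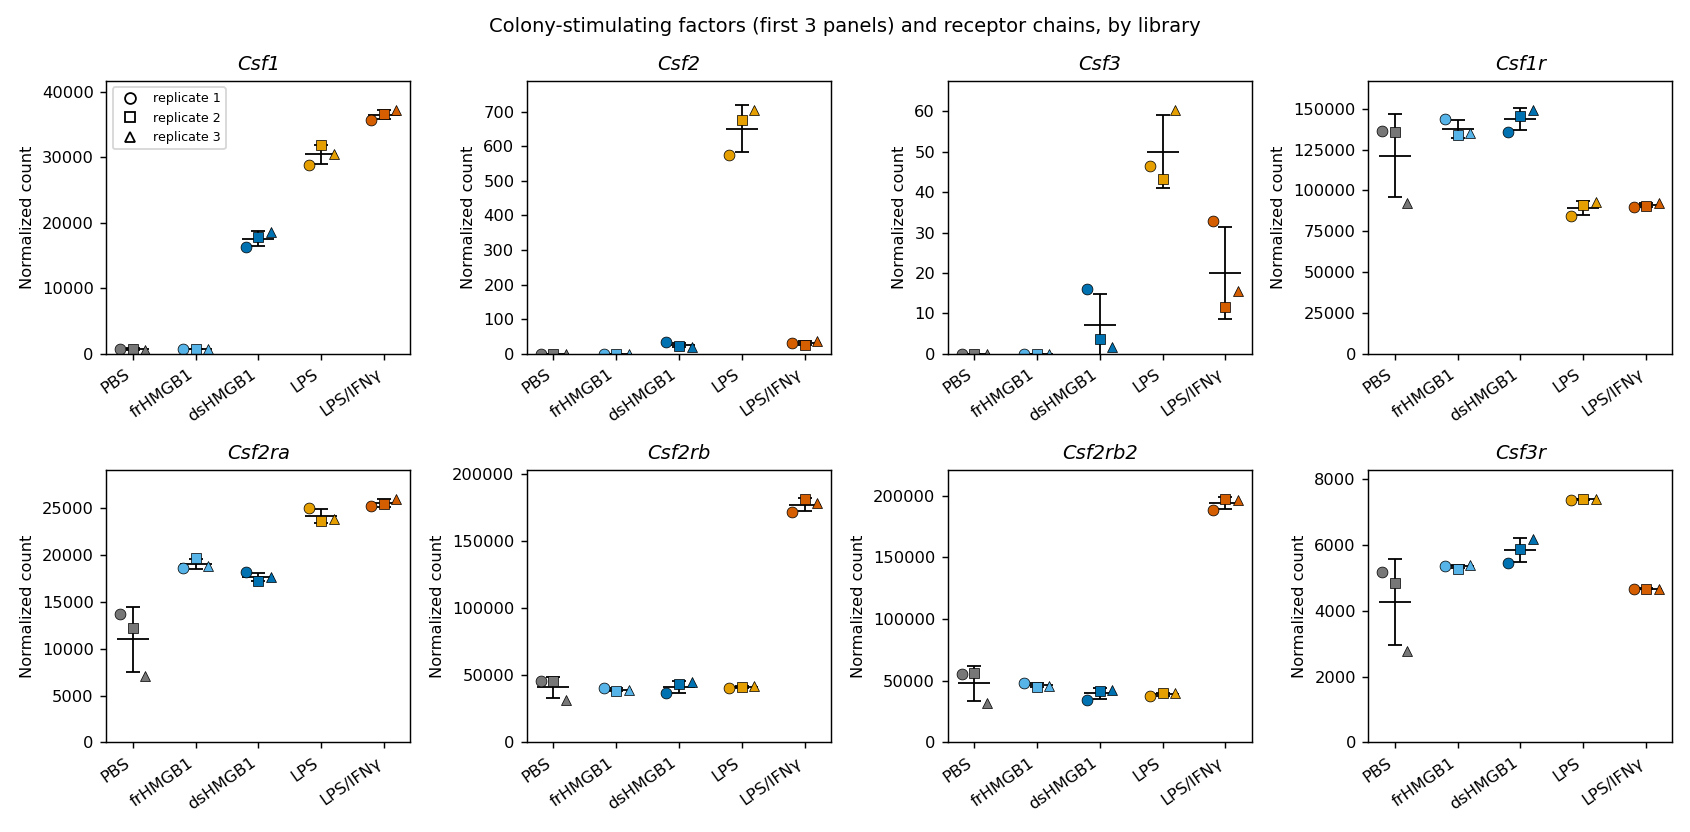
Normalized counts (y axes, linear and starting at 0) of the 8 members in the 15 libraries by group (x axes); symbols are single libraries, horizontal bars the mean and error bars the SD of 3 libraries. *Csf1* rises in 3 groups, *Csf2* peaks in LPS, *Csf2rb* and *Csf2rb2* stand out in LPS/IFNγ, and PBS replicate 3 is the lowest PBS library for the 6 members with counts there.

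*Csf1* (ENSMUSG00000014599, GRCm38 chromosome 3, 107741048 to 107760469, minus strand) encodes M-CSF. Its promoter is shown because the gene moved most of all members that had counts in PBS. In the 250 bases before the RefSeq start (RefSeq, GRCm38.p6, chr3:107760470-107760719, minus strand), capitals mark the one match to the NF-kB consensus on either strand, which begins 154 bases before the start.
Csf1 promoter: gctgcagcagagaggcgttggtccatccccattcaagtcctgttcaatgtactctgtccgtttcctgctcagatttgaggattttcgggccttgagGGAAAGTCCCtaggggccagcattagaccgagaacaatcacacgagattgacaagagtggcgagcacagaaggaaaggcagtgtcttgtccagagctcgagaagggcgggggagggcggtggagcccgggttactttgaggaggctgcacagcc
Of 32851 promoters searched over the same length, 7.25% held such a match, and it is given as a description of the letters only.

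Normalized counts of *Csf1* were 732, 803 and 558 in PBS and 685, 767 and 692 in frHMGB1. They were 16340.0, 17771 and 18580.3 in dsHMGB1. In LPS they were 28906, 31885 and 30558, and in LPS/IFNγ 35753, 36649 and 37209. The PBS and frHMGB1 libraries overlapped, and every library of the other 3 groups lay above them without overlap between any of those 3. The mean was 697 ± 126 for PBS (SD, n = 3) and 715 ± 45.5 for frHMGB1. It was 17564 ± 1134 for dsHMGB1, 30449.7 ± 1493 for LPS and 36537 ± 735 for LPS/IFNγ. Over PBS, *Csf1* rose 25.1-fold in dsHMGB1 (log2 fold change 4.65, SE 0.12, edgeR adjusted p = 3.44e-11). With LPS it rose 43.5-fold (5.44, SE 0.12, edgeR adjusted p = 6.36e-12) and 52.2-fold in LPS/IFNγ (5.70, SE 0.12, edgeR adjusted p = 4.07e-12). In frHMGB1 the log2 difference from PBS was 0.03 with a 95% interval of -0.21 to 0.27 (edgeR adjusted p = 0.903). The 3 stimulations that raised *Csf1* did not do so to the same level. dsHMGB1 stayed 1.73-fold below LPS (log2 -0.79, SE 0.12, edgeR adjusted p = 0.000965) and 2.08-fold below LPS/IFNγ (-1.06, SE 0.12, edgeR adjusted p = 3.85e-05). LPS/IFNγ and LPS differed by 0.26 (95% interval 0.03 to 0.49), which was not called (edgeR adjusted p = 0.117), although it was without PBS replicate 3 (edgeR log2 fold change 0.25, adjusted p = 0.00222).

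*Csf2* (ENSMUSG00000018916, chromosome 11, 54247271 to 54249667, minus strand) encodes GM-CSF, a growth and activating factor of macrophages, granulocytes and dendritic cells. The mRNAs of *Csf2* and *Csf3* are known for AU-rich elements, repeats of ATTTA in the 3′ UTR that mark cytokine mRNAs for rapid decay, so the richest stretch of 30 bases of each ligand is shown. The sequences are from GENCODE M21 on GRCm38 (chr3:107741109-107741138, minus, for *Csf1*; chr11:54247329-54247358, minus, for *Csf2*; chr11:98702984-98703013, plus, for *Csf3*), and capitals mark ATTTA.
Csf1: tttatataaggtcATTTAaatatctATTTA
Csf2: tttttaaatATTTATTTATTTATTTATTTA
Csf3: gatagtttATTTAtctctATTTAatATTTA
The 317 bases of the *Csf2* 3′ UTR held 9 ATTTA, and 0% of the 1707 genes with a 3′ UTR within 20% of that length held as many. The 669 bases of *Csf3* held 6, a number reached by 1.74% of 2240 genes of like length. *Csf1* held 4 in 2111 bases, a number reached by 49% of 2767 genes, *Csf1r* 3 in 1669 bases, and the other 4 receptor chains 0.

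In PBS and frHMGB1, *Csf2* had 0 counts in all 6 libraries. It had 37, 31 and 25 counts in dsHMGB1 (32.9, 22.7 and 21.02 normalized). In LPS there were 444, 452 and 479 counts (574, 676 and 704 normalized), and in LPS/IFNγ 29, 25 and 40 counts (30.8, 26.3 and 36.6 normalized). LPS stood alone, with every library above every library of the other groups, and the dsHMGB1 and LPS/IFNγ libraries overlapped. Set against 3 counts over the PBS libraries, the number that a count of 0 still allows, *Csf2* was at least 33.6-fold higher in dsHMGB1, at least 861-fold higher in LPS and at least 41.8-fold higher in LPS/IFNγ (edgeR adjusted p = 2.15e-06, 8.03e-09 and 8.18e-07). These limits cover counting error only, and they fall where fewer PBS libraries are counted, to 20.6, 527 and 25.6 without PBS replicate 1 and 20.2, 518 and 25.2 without PBS replicate 2. LPS/IFNγ stayed 20.8-fold below LPS alone (31.2 ± 5.14 against 651 ± 68.5 normalized counts, SD, n = 3; log2 -4.38, SE 0.24, edgeR adjusted p = 1.73e-06). dsHMGB1 stayed 25.6-fold below LPS (25.6 ± 6.43; log2 -4.68, SE 0.24, edgeR adjusted p = 1.44e-06). dsHMGB1 and LPS/IFNγ differed by -0.30 with a 95% interval of -0.85 to 0.25 (edgeR adjusted p = 0.438). The antisense gene *Gm12223*, which shares 96 exon bases with *Csf2*, had 0 counts.

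*Csf3* (ENSMUSG00000038067, chromosome 11, 98701263 to 98703629, plus strand) encodes G-CSF and was the least abundant member. It had 0 counts in the 6 PBS and frHMGB1 libraries. Counts were 18, 5 and 2 in dsHMGB1, 36, 29 and 41 in LPS and 31, 11 and 17 in LPS/IFNγ. In normalized counts this was 7.12 ± 7.77, 50.1 ± 9.004 and 20.0 ± 11.3 (SD, n = 3), and the SD of dsHMGB1 was above its mean. The dsHMGB1 and LPS/IFNγ libraries overlapped, and the LPS libraries lay above both. Against 3 counts over the PBS libraries, *Csf3* was at least 9.03-fold higher in dsHMGB1, at least 66.3-fold in LPS and at least 26.2-fold in LPS/IFNγ (edgeR adjusted p = 0.00808, 0.000224 and 0.000892). The limit in dsHMGB1 rested on replicate 1, which held 18 of the 25 counts, and was 3.64 without it. Without PBS replicate 1 the limits were 5.53, 40.6 and 16.1, and without PBS replicate 2 they were 5.44, 39.95 and 15.8. It was lower in dsHMGB1 than in LPS (log2 -2.83, SE 0.77, edgeR adjusted p = 0.0201), a call that was lost without dsHMGB1 replicate 2 (adjusted p = 0.0805), dsHMGB1 replicate 3 (0.0602) or LPS replicate 3 (0.0611). Between LPS/IFNγ and LPS the difference was -1.33 with a 95% interval of -2.78 to 0.12 (edgeR adjusted p = 0.209). The dsHMGB1 and LPS/IFNγ groups differed by -1.50 (95% interval -3.03 to 0.03, edgeR adjusted p = 0.162), or by an edgeR log2 fold change of -2.78 with an adjusted p of 0.0172 without dsHMGB1 replicate 1.

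*Csf1r* (ENSMUSG00000024621, chromosome 18, 61100598 to 61132149, plus strand), the receptor of M-CSF and IL-34, was abundant in every library. Normalized counts were 136131, 135623 and 92213 in PBS, 143640.0, 134129 and 134983 in frHMGB1, and 136092, 145705 and 149117 in dsHMGB1. They were 84553, 91008 and 92882 in LPS and 90180.4, 90468 and 92507 in LPS/IFNγ. All LPS and LPS/IFNγ libraries lay below all libraries of the HMGB1 forms, and they overlapped PBS through its replicate 3. *Csf1r* fell by 0.44 on the log2 scale in LPS (SE 0.13, edgeR adjusted p = 0.00627) and by 0.41 in LPS/IFNγ (SE 0.13, edgeR adjusted p = 0.0135). The call in LPS/IFNγ was lost without PBS replicate 1 (adjusted p = 0.0637) or PBS replicate 2 (0.061), and without PBS replicate 3 the edgeR log2 fold changes were -0.66 in LPS and -0.65 in LPS/IFNγ (adjusted p = 3.11e-09 and 3.74e-09). dsHMGB1 did not share the fall: its difference from PBS was 0.24 (95% interval -0.02 to 0.51, edgeR adjusted p = 0.2). Set against the other stimulations directly, *Csf1r* was 1.61-fold higher in dsHMGB1 than in LPS (log2 0.68, SE 0.13, edgeR adjusted p = 0.00162) and 1.58-fold higher than in LPS/IFNγ (0.66, SE 0.13, edgeR adjusted p = 0.0021). The difference between LPS/IFNγ and LPS was 0.03 (95% interval -0.24 to 0.29, edgeR adjusted p = 0.807), and between frHMGB1 and PBS 0.18 (-0.08 to 0.44, edgeR adjusted p = 0.553). The summed macrophage markers were lowest in the same groups, LPS and LPS/IFNγ, and their part in the fall of *Csf1r* was not tested. That sum is led by *Lyz2* and does not show each marker, and *Spi1*, a gene of the same list, rose in both groups, as given below. Exons of *Csf1r* share 873 bases with *Hmgxb3* on the other strand, which had 29961 counts over all libraries against 189471 to 528957 for *Csf1r* in each group.

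*Csf2ra* (ENSMUSG00000059326, chromosome 19, 61223957 to 61228429, minus strand) encodes the chain that binds GM-CSF and was the one member called in all 4 comparisons with PBS. It had 13737, 12264 and 7125 normalized counts in PBS. The values were 18610.4, 19669 and 18877 in frHMGB1 and 18166, 17212 and 17659 in dsHMGB1. They were 25025, 23659.5 and 23879 in LPS and 25226, 25479 and 26013.5 in LPS/IFNγ. Every stimulated library lay above every PBS library, and no pair of groups overlapped. The rise was 1.73-fold in frHMGB1 (log2 0.79, SE 0.19, edgeR adjusted p = 0.0193) and 1.60-fold in dsHMGB1 (0.68, SE 0.19, edgeR adjusted p = 0.011). It was 2.19-fold in LPS (1.13, SE 0.19, edgeR adjusted p = 0.000285) and 2.32-fold in LPS/IFNγ (1.21, SE 0.19, edgeR adjusted p = 0.000116). PBS replicate 3 set part of these sizes, since without it the edgeR log2 fold changes were 0.55, 0.41, 0.84 and 0.91 in the same order, all with an adjusted p of 9.96e-06 or less. The call in frHMGB1 was lost without frHMGB1 replicate 1 (adjusted p = 0.0547), 2 (0.0733) or 3 (0.0592). dsHMGB1 was lower than LPS/IFNγ (log2 -0.53, SE 0.19, edgeR adjusted p = 0.0495), a call lost when any 1 of the 12 stimulated libraries was left out (adjusted p = 0.069 to 0.128). The differences between dsHMGB1 and LPS (-0.45, edgeR adjusted p = 0.143), dsHMGB1 and frHMGB1 (-0.11, 0.579), and LPS and LPS/IFNγ (0.08, 0.713) were not called. Without PBS replicate 3, those of dsHMGB1 with LPS (edgeR log2 fold change -0.43, adjusted p = 2.41e-06) and with frHMGB1 (-0.14, adjusted p = 0.0277) were.

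*Csf2rb* (ENSMUSG00000071713, chromosome 15, 78325752 to 78353847, plus strand) encodes the beta chain common to the GM-CSF, IL-3 and IL-5 receptors. Its neighbour *Csf2rb2* (ENSMUSG00000071714, chromosome 15, 78282507 to 78305721, minus strand), a copy found in the mouse, encodes a beta chain for IL-3. Their coding sequences, of 2691 and 2637 bases, were identical at 95.21% of 2631 aligned bases, and 18.39% of the windows of 50 bases in the *Csf2rb* transcript occurred letter for letter in that of *Csf2rb2*. A pair of neighbouring stretches shows what reads can and cannot tell apart (GENCODE M21, GRCm38; the first pair at chr15:78338893-78338952, plus, and chr15:78294379-78294438, minus; the second pair at chr15:78338834-78338893, plus, and chr15:78294438-78294497, minus). Capitals mark the 13 bases that differ between the genes in the first pair, and the 60 bases of the second pair are the same in both.
Csf2rb, most different: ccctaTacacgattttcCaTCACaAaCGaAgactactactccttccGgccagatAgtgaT
Csf2rb2, most different: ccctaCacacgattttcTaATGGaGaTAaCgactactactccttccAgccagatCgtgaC
Csf2rb, least different: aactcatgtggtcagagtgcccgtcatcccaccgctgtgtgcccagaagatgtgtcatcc
Csf2rb2, least different: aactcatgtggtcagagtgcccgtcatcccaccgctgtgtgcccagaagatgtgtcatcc
The longest run shared by the coding sequences was 242 bases. How reads that fit both genes were counted is not given in the sources used here, so the split between the genes is uncertain and their sum was tested as well.

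*Csf2rb* had 45656, 45799.9 and 31934 normalized counts in PBS, 40329, 38142 and 39359 in frHMGB1, and 36626, 43247 and 45084 in dsHMGB1. It had 40451, 41492 and 41974 in LPS, and 171534, 181342 and 178402 in LPS/IFNγ. *Csf2rb2* ran in parallel, with 55640.9, 56553 and 31763 in PBS, 47950.3, 44727 and 46067 in frHMGB1, 34490.4, 41809 and 42875 in dsHMGB1, 37364, 39870.3 and 39798 in LPS, and 188652, 197238 and 196000.0 in LPS/IFNγ. For both genes the LPS/IFNγ libraries lay far above all others. *Csf2rb* rose 4.31-fold over PBS in LPS/IFNγ (log2 2.11, SE 0.14, edgeR adjusted p = 3.3e-08) and was 4.29-fold higher than with LPS alone (2.10, SE 0.14, edgeR adjusted p = 2.53e-07). *Csf2rb2* rose 4.04-fold over PBS (2.02, SE 0.19, edgeR adjusted p = 9.41e-07) and 4.97-fold over LPS (2.31, SE 0.19, edgeR adjusted p = 1.72e-06). In the sum of both genes, the edgeR log2 fold change was 2.02 over PBS (adjusted p = 2.09e-07) and 2.24 over LPS (adjusted p = 7.51e-07), so the rise of the pair did not turn on how reads were split. The sum cannot show how much of the rise belongs to each gene, and it lacks any shared reads that were not counted. No other stimulation was called over PBS. For *Csf2rb* the log2 differences were -0.07 in frHMGB1 (95% interval -0.33 to 0.20), 0.02 in dsHMGB1 (-0.25 to 0.28) and 0.01 in LPS (-0.26 to 0.27). For *Csf2rb2* they were -0.05 (-0.42 to 0.31), -0.27 (-0.64 to 0.09) and -0.30 (-0.66 to 0.07). This depended on PBS replicate 3, without which *Csf2rb* was called lower in frHMGB1, dsHMGB1 and LPS (edgeR log2 fold changes -0.23, -0.17 and -0.21, adjusted p = 0.0295, 0.041 and 0.0121), as was *Csf2rb2* (-0.28, -0.53 and -0.58, adjusted p = 0.0107, 4.28e-06 and 9.42e-07). Against frHMGB1, which has no such library, *Csf2rb2* was 0.22 lower in dsHMGB1 (edgeR adjusted p = 0.293) and 0.25 lower in LPS (edgeR adjusted p = 0.161) on the log2 scale, and both were called when PBS replicate 3 was left out of the fit (adjusted p = 0.00258 and 0.000523).

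The balance between the beta chains was followed as the count ratio of *Csf2rb* to *Csf2rb2*, which depends on how shared reads were assigned. The PBS libraries had 0.821, 0.810 and 1.01, and those of frHMGB1 0.841 to 0.854. With dsHMGB1 the ratio was 1.03 to 1.06, with LPS 1.04 to 1.08, and with LPS/IFNγ 0.909 to 0.919. The ratio in dsHMGB1 and LPS overlapped, both lay above frHMGB1 and LPS/IFNγ, whose values lay within the range of PBS, and PBS replicate 3 lay nearer to them than to the other PBS libraries. The promoter of *Csf2rb2* is shown because the gene rose in LPS/IFNγ and its start is the same in RefSeq and GENCODE. In the 250 bases before it (RefSeq, GRCm38.p6, chr15:78305722-78305971, minus strand), capitals mark the single match to TTCNNNGAA, the gamma-activated sequence, which begins 15 bases before the start.
Csf2rb2 promoter: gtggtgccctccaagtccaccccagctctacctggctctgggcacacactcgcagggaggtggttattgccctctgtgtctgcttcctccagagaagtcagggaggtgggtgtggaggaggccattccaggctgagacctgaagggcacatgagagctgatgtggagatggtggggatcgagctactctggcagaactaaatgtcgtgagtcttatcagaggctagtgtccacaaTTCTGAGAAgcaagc
TTCNNNGAA reads the same on both strands and occurred in 7.02% of the 32851 promoters, and the match is given as a description of the letters only. The promoters of *Csf1*, *Csf2*, *Csf2ra* and *Csf3r* had no match, which says nothing on sites elsewhere, and those of *Csf3*, *Csf1r* and *Csf2rb* were not searched. The NF-kB consensus matched in *Csf1* and *Csf3r* only, among the 5 promoters searched. These windows end at the RefSeq start, which for *Csf2* lies 232 bases before the GENCODE start, so those bases were not searched. For *Csf3r* the RefSeq start lies 109 bases after the GENCODE start, and for *Csf2ra* the starts are 11 bases apart. GAGGAA, the core bound by PU.1, matched 2 times in *Csf2ra* and 1 time each in *Csf2rb2* and *Csf3r* (23.3% of all promoters), TTGCNNAA of C/EBP factors matched in *Csf2* (9.56%), and TGANTCA of AP-1 matched in none of the 5 (6.75%).

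*Csf3r* (ENSMUSG00000028859, chromosome 4, 126024550 to 126044440, plus strand) encodes the receptor of G-CSF and was highest in LPS. Normalized counts were 5182, 4853 and 2779 in PBS, 5372, 5281 and 5389 in frHMGB1, and 5465, 5884 and 6188 in dsHMGB1. They were 7377, 7396 and 7389 in LPS and 4653, 4677 and 4666 in LPS/IFNγ. The LPS libraries lay above all others and the LPS/IFNγ libraries below those of LPS and both HMGB1 forms, within the range of PBS. *Csf3r* rose 1.73-fold in LPS (log2 0.79, SE 0.18, edgeR adjusted p = 0.0044), and the edgeR log2 fold change was 0.50 without PBS replicate 3 (adjusted p = 5.94e-07). The rise was not seen in LPS/IFNγ, which differed from PBS by 0.13 (95% interval -0.23 to 0.49, edgeR adjusted p = 0.696) and lay 1.58-fold below LPS (log2 -0.66, SE 0.18, edgeR adjusted p = 0.0236). The second call was lost without LPS/IFNγ replicate 1 (adjusted p = 0.051) or 3 (0.0504). Without PBS replicate 3 the sign against PBS turned, and *Csf3r* was called lower in LPS/IFNγ (edgeR log2 fold change -0.18, adjusted p = 0.0127). In dsHMGB1, *Csf3r* differed from PBS by 0.45 (SE 0.18, edgeR adjusted p = 0.0711), and it was called higher without PBS replicate 1 (edgeR log2 fold change 0.61, adjusted p = 0.0197), 2 (0.55, adjusted p = 0.0416) or 3 (0.19, adjusted p = 0.0111). dsHMGB1 differed from LPS by -0.34 (edgeR adjusted p = 0.304) and from LPS/IFNγ by 0.33 (edgeR adjusted p = 0.185), both called without PBS replicate 3 (adjusted p = 7.85e-05 and 1.19e-05).

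**Figure D2:**
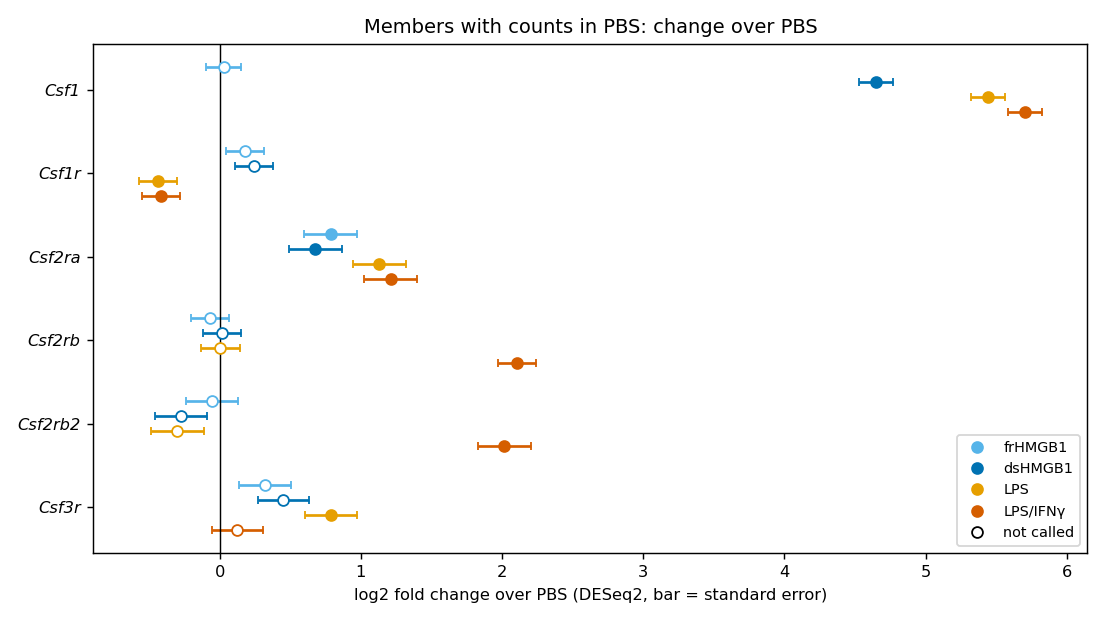
Log2 fold change over PBS (x axis, DESeq2) of the 6 members with counts in PBS (y axis) in frHMGB1, dsHMGB1, LPS and LPS/IFNγ; bars are the standard error, filled points are called by edgeR and open points are not. *Csf1* lies between 4.65 and 5.70 in 3 stimulations, the beta chains at 2.11 and 2.02 in LPS/IFNγ alone, and *Csf2ra* at 0.68 to 1.21 in all 4.

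**Figure D3:**
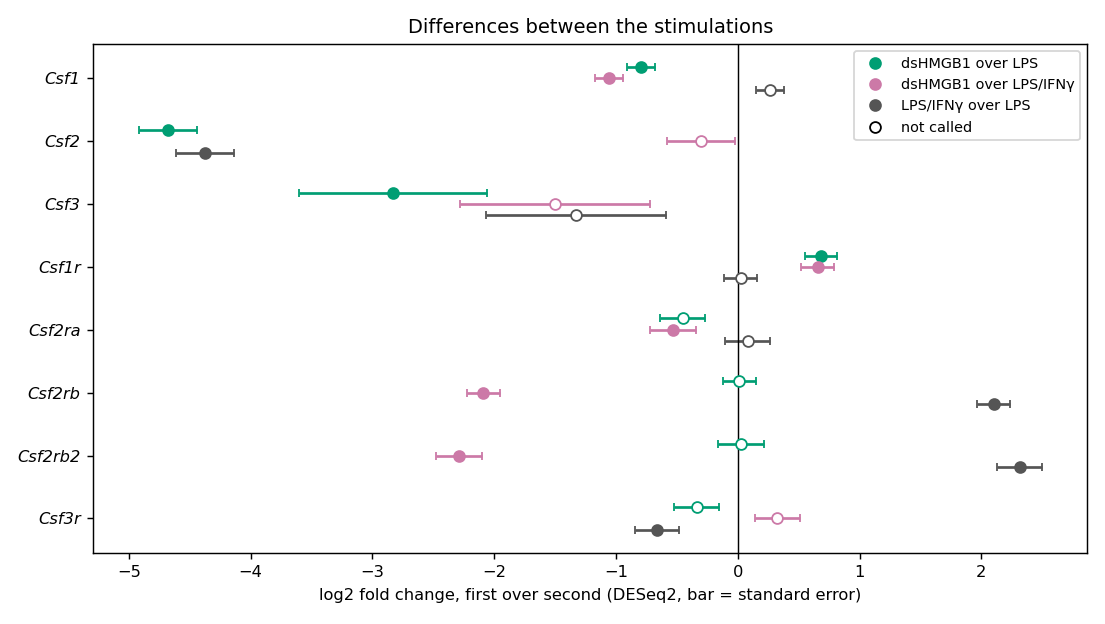
Log2 fold change of the 8 members (y axis) between stimulations (x axis, DESeq2, first over second); bars are the standard error, filled points are called by edgeR and open points are not. *Csf2* is far lower in dsHMGB1 (-4.68) and LPS/IFNγ (-4.38) than in LPS, while *Csf2rb* and *Csf2rb2* are higher in LPS/IFNγ than in either other stimulation.

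Levels of different genes were compared as normalized counts per kb of exon, with all exons of a gene merged. Merged exons span 7277 bases for *Csf2rb* and 4740 for *Csf2rb2*, whereas the *Csf2rb* transcript with the longest coding sequence has 4900. The gap between the beta chains per kb therefore depends on the length used. Their mean normalized counts were 41130 for *Csf2rb* and 47986 for *Csf2rb2* in PBS, and *Csf2rb* was the higher in dsHMGB1 and LPS. In PBS the order was *Csf1r* with 21012 ± 4366 per kb (SD, n = 3), *Csf2rb2* with 10124 ± 2966, *Csf2rb* with 5652 ± 1094, *Csf2ra* with 3846 ± 1209, *Csf3r* with 1183 ± 361 and *Csf1* with 132 ± 23.9, and no counts for *Csf2* and *Csf3*. *Csf1r* was the most abundant member per kb in every group but LPS/IFNγ. There, *Csf2rb2* reached 40920.5 ± 979 and *Csf2rb* 24336 ± 692 per kb, above *Csf1r* with 15769 ± 220. *Csf1* moved from below *Csf3r* in PBS to above it, with 3326 ± 215 per kb with dsHMGB1, 5766 ± 283 with LPS and 6919 ± 139 with LPS/IFNγ. *Csf2* reached 814 ± 85.6 per kb in LPS, and *Csf3* 35.4 ± 6.37. The ratio of ligand to receptor mRNA per kb, *Csf1* over *Csf1r*, was 0.00632 in PBS and 0.00569 in frHMGB1. With dsHMGB1 it was 0.134 (0.131 to 0.136 over the libraries), with LPS 0.372 (0.360 to 0.383) and with LPS/IFNγ 0.439 (0.433 to 0.443).

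**Figure D4:**
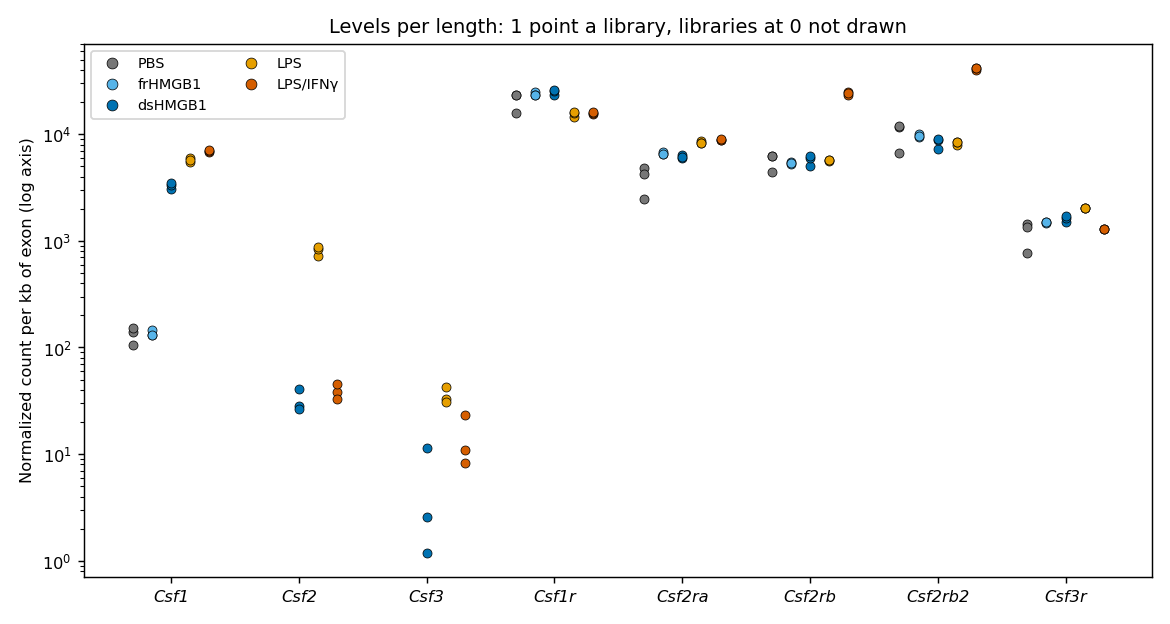
Normalized counts per kb of exon (y axis, logarithmic) of the 8 members (x axis) by group; each point is 1 of 3 libraries of a group, and libraries with 0 counts are not drawn. *Csf1r* leads in every group except LPS/IFNγ, where both beta chains lie above it, and *Csf2* and *Csf3* have no points in PBS and frHMGB1.

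The other ligands and chains of these receptors were a list of 5. *Il34*, the other ligand of CSF1R, had 8.21 ± 5.50 normalized counts with PBS and 17.9 ± 5.44 with frHMGB1 (SD, n = 3). With dsHMGB1 it had 22.4 ± 3.92, with LPS 30.6 ± 8.60 and with LPS/IFNγ 27.5 ± 9.70. It was called higher in dsHMGB1, LPS and LPS/IFNγ (log2 1.35, 1.79 and 1.64, edgeR adjusted p = 0.0359, 0.00762 and 0.0108). *Il3ra*, the alpha chain of the IL-3 receptor, had means of 5212 to 7522 and was not called over PBS. *Il3*, *Il5* and *Il5ra* had at most 2 counts in any group and were not tested.

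Lists of genes around the receptors were read beside the share of all tested genes called over PBS, and beside the medians of all tested genes given above. This share was 47.4% for dsHMGB1, 62.9% for LPS, 60.3% for LPS/IFNγ and 7% for frHMGB1 (1.31% higher, 5.69% lower). For dsHMGB1 against LPS it was 26.4% (15.8% higher, 10.6% lower). The JAK-STAT list held 14 kinases, STAT factors and feedback genes, and all 14 were called higher than PBS in dsHMGB1, LPS and LPS/IFNγ, with median log2 fold changes of 2.63, 3.51 and 3.12 beside -0.10, -0.21 and -0.12 for all genes. These pathways serve many cytokines and not the colony-stimulating factors alone. *Socs3*, a feedback inhibitor, went from 78.9 ± 12.9 normalized counts in PBS to 25858 ± 2372 with dsHMGB1, 104826 ± 4820 with LPS and 88412 ± 1005 with LPS/IFNγ (SD, n = 3). *Jak2*, the kinase bound to the beta chain, went from 2073 ± 556 to 33947 ± 4200 with dsHMGB1, 65486 ± 812 with LPS and 68414 ± 850.0 with LPS/IFNγ. *Pim1*, a STAT5 target, rose by log2 3.64, 4.68 and 4.48 and *Jak1* by 1.33, 2.03 and 2.30 (edgeR adjusted p = 0.00212 or less for each). *Jak1* spread widely in PBS, with 10851 ± 5092 normalized counts (mean and SD). In dsHMGB1, 1 gene of the list was called higher than in LPS and 9 lower, among them *Socs3* (-2.02, edgeR adjusted p = 1.27e-05). In frHMGB1, 2 of the 14 were called higher than in PBS, *Socs3* (1.14, edgeR adjusted p = 0.00437) and *Ptpn6* (0.29, edgeR adjusted p = 0.048), and several alternatives called 1 of the list.

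The 20 genes close to CSF1R split in direction. Over PBS, 10 were called higher and 4 lower in dsHMGB1, and 10 and 6 in both LPS and LPS/IFNγ, which is 70%, 80% and 80% of the list, with medians of log2 0.41, 0.70 and 0.59. *Src* and *Lyn*, kinases of the SRC family, rose by log2 2.82 and 2.19 in dsHMGB1, 3.61 and 2.24 in LPS, and 3.71 and 3.00 in LPS/IFNγ (edgeR adjusted p = 8.3e-10 or less for each). *Tyrobp*, the adaptor DAP12, was lower, with log2 fold changes of -0.58, -0.52 and -0.93 (edgeR adjusted p = 0.0126, 0.00999 and 0.000302). Its PBS libraries spread widely, with 62213 ± 23992 normalized counts (mean and SD). In frHMGB1, 2 of the 20 were called higher, among them *Fgr* (0.64, edgeR adjusted p = 0.00419), and 6 were called without PBS replicate 3. Calls over all genes rose in that fit too, as given at the end, so the rise is not read as a result about this list.

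Of the 5 genes for shedding of surface proteins, dsHMGB1 and LPS each had 3 called higher and 1 lower, and LPS/IFNγ 4 higher and 0 lower, which is 80% of the list each time, with medians of log2 1.72, 1.36 and 0.74. *Adam17*, the main sheddase of CSF1R, went from 12394 ± 2276 normalized counts in PBS to 40773 ± 3867 with dsHMGB1, 31846 ± 580 with LPS and 20714 ± 122 with LPS/IFNγ (SD, n = 3; log2 1.72, 1.36 and 0.74, edgeR adjusted p = 2.24e-07, 2.04e-06 and 0.000434). *Rhbdf2*, which carries ADAM17 to the surface, rose by 2.68, 3.40 and 3.13 (edgeR adjusted p = 3.92e-09, 3.12e-10 and 5.48e-10). *Mmp14*, a surface metalloproteinase, rose by 3.81, 3.998 and 2.52 (edgeR adjusted p = 3.42e-10 or less). *Adam8* differed by log2 -0.37, -0.33 and 0.37 (edgeR adjusted p = 0.0314, 0.0205 and 0.0482).

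Transcription factors known to act on *Csf1r* were a list of 11, with 6 called higher and 4 lower in dsHMGB1, 6 and 5 in LPS, and 5 and 5 in LPS/IFNγ. These are 90.9%, 100% and 90.9% of the list, with medians of log2 0.96, 1.26 and 0.50. *Spi1*, which encodes PU.1, rose by log2 1.27, 1.26 and 1.22 in that order (edgeR adjusted p = 3.28e-06 or less). *Irf8* rose by 0.96, 2.88 and 4.95 and reached 426729 ± 11416 normalized counts (SD, n = 3) in LPS/IFNγ from 13807 ± 565 in PBS. *Maf* rose by 1.46, 1.56 and 1.89 and *Mitf* by 1.43, 1.32 and 1.48 (edgeR adjusted p = 0.000193 or less for each). Between LPS/IFNγ and LPS, *Irf8* differed by 2.07 (edgeR adjusted p = 2.58e-09) and *Csf1r* itself was not called. The part of these factors in the level of *Csf1r* was not tested.

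The list of proteins that bind AU-rich and other decay elements held 8 genes, of which dsHMGB1 had 4 called higher and 2 lower, LPS 5 and 2, and LPS/IFNγ 6 and 2. These are 75%, 87.5% and 100% of the list, with medians of log2 0.67, 1.07 and 1.18. *Zfp36*, which encodes the decay factor tristetraprolin, had 5777 ± 437 normalized counts in PBS, 21638 ± 1416 with dsHMGB1, 46282 ± 509 with LPS and 14093 ± 201 with LPS/IFNγ (SD, n = 3). *Zfp36* was highest in LPS and lower in LPS/IFNγ than in LPS (log2 -1.72, edgeR adjusted p = 3.4e-08). LPS was also the group with the most *Csf2* and *Csf3* counts. Decay was not measured, and a link between these genes was not tested. *Zc3h12a*, the RNase Regnase-1, rose by 2.16, 3.94 and 3.40 (edgeR adjusted p = 1.95e-08, 6.23e-11 and 1.78e-10), and *Zfp36l2* was lower, with -1.66, -1.37 and -1.79 (edgeR adjusted p = 0.00169, 0.0032 and 0.000637). *Zfp36l2* spread widely in PBS, with 15922 ± 8996.5 normalized counts (mean and SD). In frHMGB1, *Zfp36* (0.45, edgeR adjusted p = 0.00552) and *Zc3h12a* (0.58, edgeR adjusted p = 0.012) were called higher, 1 of them without the filter on low counts.

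Genes that GM-CSF is known to raise in macrophages were a list of 11. Over PBS, 5 were called higher and 3 lower in dsHMGB1, 6 and 3 in LPS, and 6 and 2 in LPS/IFNγ. These are 72.7%, 81.8% and 72.7% of the list, with medians of log2 0.21, 1.05 and 1.87. *Ccl22*, a chemokine, had 9.65 ± 4.32 normalized counts in PBS, 2243 ± 212 with dsHMGB1, 21849 ± 118 with LPS and 14719.8 ± 528 with LPS/IFNγ (SD, n = 3). *Cish*, a STAT5 target, went from 4.40 ± 1.82 to 1272 ± 260.4 with dsHMGB1, 8006 ± 179 with LPS and 11278 ± 179 with LPS/IFNγ. *Bhlhe40* had log2 fold changes of -1.51, -0.84 and 0.52 (edgeR adjusted p = 2.71e-05, 0.00118 and 0.0468). *Bhlhe41* was lower, with log2 fold changes of -0.27, -1.47 and -3.58 (edgeR adjusted p = 0.0448, 4.03e-08 and 1.66e-11). In dsHMGB1, 2 genes of the list were called higher than in LPS and 7 lower, with a median of -1.74 beside 0.02 for all genes. *Cish* was higher in LPS/IFNγ than in LPS (log2 0.49, edgeR adjusted p = 0.0483) and *Csf2* was lower there. A link between *Csf2* and the genes of this list was not tested.

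Genes tied to M-CSF and the resident macrophage state were a list of 13, of which 12 were tested. Over PBS, 2 were called higher and 3 lower in dsHMGB1, and 3 and 3 in both LPS and LPS/IFNγ. These are 41.7%, 50% and 50% of the 12, beside 47.4%, 62.9% and 60.3% of all genes, with medians of log2 0.26, 0.27 and 0.31. *Gas6*, a ligand of the TAM receptors, was lower, with log2 fold changes of -1.24, -1.16 and -1.30 (edgeR adjusted p = 5.35e-08, 4.27e-08 and 1.77e-08). *Maf* is on this list too and rose, as given above. Without PBS replicate 3, 5 genes of the list were called in frHMGB1 instead of 0, 9 in dsHMGB1 instead of 5 and 10 in LPS instead of 6. Calls over all genes also rose for frHMGB1 against PBS in that fit, so these counts are not a result about the list alone.

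**Figure D5:**
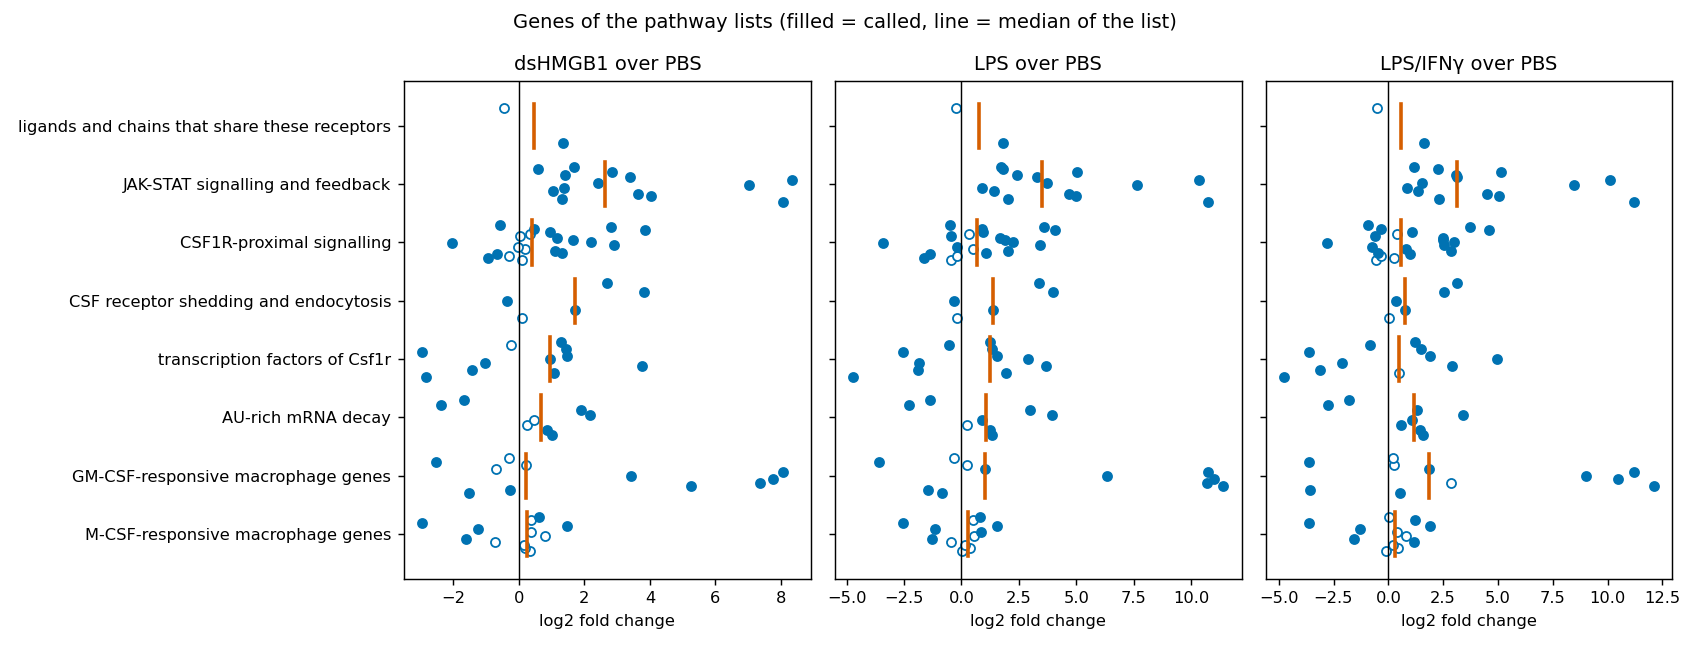
Log2 fold changes over PBS (x axis, DESeq2) of the tested genes of 8 lists (y axis) in dsHMGB1, LPS and LPS/IFNγ; each point is a gene, filled where called by edgeR, and the line is the median of the list. All 14 JAK-STAT genes lie above 0 in the 3 panels, whereas the other lists with more than 2 tested genes hold called genes on both sides, except the shedding list in LPS/IFNγ.

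The genes most like each member in pattern were found among 11346 protein-coding genes by the root mean square (RMS) difference over the 15 libraries in log2(normalized count + 1), centred on each gene's mean. For *Csf1* they were *Slfn8* (RMS difference 0.128), *Irgm1* (0.145) and *Arid5a* (0.202). *Slfn8* rose from 1270.0 normalized counts in PBS to 38357 with dsHMGB1, 65132 with LPS and 73564 with LPS/IFNγ, which is the same order as *Csf1*. No gene was as close to *Csf2*, whose nearest were *Il19* (0.826), *Ccl2* (0.8999) and *Ccl3* (0.910), genes of secreted cytokines and chemokines. *Il19* had means of 0, 0, 6.92, 189 and 21.7 normalized counts in PBS, frHMGB1, dsHMGB1, LPS and LPS/IFNγ. *Csf3* was nearest to *Rnaset2b* (0.583) and *Noct* (0.712). *Csf1r* was nearest to *Plcg2* (0.0891), a phospholipase that is also on the list of genes close to CSF1R, *Tmem164* (0.0934) and *G6pdx* (0.0957). For *Csf2ra* they were *BC037034* (0.140), *Mapk8ip3* (0.145) and *Ap3m1* (0.161). *Csf2rb* and *Csf2rb2* were near each other (0.148), with *Dnajb4* (0.131) and *Tulp3* (0.149) beside *Csf2rb* and *Rnf217* (0.169) and *Tox2* (0.194) beside *Csf2rb2*. *Csf3r* was nearest to *Acvr1b* (0.0885), *Khnyn* (0.0957) and *Dpep2* (0.126). The libraries of a group share their treatment, so these are descriptions of pattern over 5 conditions.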

How the data were processed

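By the study's methods and processing notes, libraries were made from mRNA with strand marked and read from both ends. The authors mapped the reads with STAR on GRCm38 and deposited unnormalized counts for each Ensembl gene. CASAVA and DESeq2 are also named, without versions. No source used here names the counting program, its annotation or its strand setting. GENCODE M21 gave symbols, positions and exon lengths, with 51661 of 51763 identifiers matched, and 0 value columns lacked a sample.

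The 15 libraries were grouped by their records. Genes kept by filterByExpr were tested in edgeR 4.0.16 (TMM, quasi-likelihood, 1 fit of all libraries, no covariates, 10 pairwise contrasts, Benjamini-Hochberg, called at 0.05), and DESeq2 1.42.0 gave normalized counts, unshrunken log2 fold changes, SE and 95% intervals, in R 4.3.3. The edgeR step was tested on simulated data. Where a group had 0 counts, folds are limits against 3 counts over the group. Reads amplified from 1 molecule are not independent, so these limits cover counting error only, whereas the 95% intervals hold the spread between libraries. Coding sequences were aligned with Biopython 1.88. Every pair of replicates differed beyond sampling noise (chi-square per degree of freedom 4.31 to 763), so none was counted as a duplicate.

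The members and lists were chosen with earlier results of these data known. Named genes are the members, from each list up to 4 called genes with the highest mean in a comparison, and the 3 genes nearest to each member. Results of some genes that this rule names are not reported here. The marker lists are given as sums. The alternatives tried were a Wald test in DESeq2, scaling by RLE, leaving the filter out, a floor of 1 CPM in 3 libraries, protein-coding genes alone, a test of a fold above 2, the 2 conditions alone, a replicate block, the beta chains summed, and each library left out.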

Additional observations from a re-analysis of the deposited data

How the results depend on the processing

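The number of members called was within 1.5 times that reported under most alternatives. The exceptions in frHMGB1 against PBS, where 1 was called, were 0 with protein-coding genes alone, 0 in a test of a fold above 2 and 0 with the 2 conditions alone, which leaves fewer samples. With the 2 conditions alone, 2 were called in dsHMGB1 against PBS and 7 in LPS against frHMGB1. The test of a fold above 2 called 3 in LPS against PBS, 1 in dsHMGB1 against LPS and 2 in dsHMGB1 against LPS/IFNγ. Leaving out 1 library gave, against PBS, 0 to 3 members called with frHMGB1, 4 to 7 with dsHMGB1, 6 to 8 with LPS and 6 to 8 with LPS/IFNγ. Against frHMGB1 it gave 3 to 5 with dsHMGB1, 4 to 7 with LPS and 6 to 8 with LPS/IFNγ. Against LPS it gave 3 to 6 for dsHMGB1 and 3 to 5 for LPS/IFNγ, and dsHMGB1 against LPS/IFNγ had 4 to 6. Without PBS replicate 3, which gave each of the highest numbers, the sign turned for *Csf2rb* in dsHMGB1 (-0.17, with 0.10 as the highest value when another library was left out) and *Csf3r* in LPS/IFNγ (-0.18, with 0.27 as the highest) against PBS. Beyond that library, the cause of these changes was not tested.

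Over all genes, the calls in frHMGB1 against PBS went from 1185 to 70 with protein-coding genes alone, 189 with the 2 conditions alone, 634 in the test of a fold above 2, 716 with 1 CPM in 3 libraries and 3035 without PBS replicate 3. In dsHMGB1 against PBS they went from 8028 to 4747 with the 2 conditions alone. Without PBS replicate 3 they went from 4461 to 8465 in dsHMGB1 against LPS, from 5621 to 9238 in dsHMGB1 against LPS/IFNγ and from 4348 to 8566 in LPS/IFNγ against LPS, and with the 2 conditions alone to 6985, 8580.0 and 8999. The test of a fold above 2 left 2657, 5229 and 4967 in dsHMGB1, LPS and LPS/IFNγ against PBS, 3396, 4113 and 5722 against frHMGB1, 931 in dsHMGB1 and 1093 in LPS/IFNγ against LPS, and 1142 in dsHMGB1 against LPS/IFNγ. Scaling on protein-coding genes shifted the comparison of LPS with PBS by -0.105 on the log2 scale, the one shift above 0.1.

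The replicate numbers did not pair the libraries: of 30 pairs with the same number, 1 had deviations correlated above 0.1 (range -0.386 to 0.375), and 6 of 15 libraries correlated best with their own number. As a hint from the data, a replicate block took dsHMGB1 against LPS/IFNγ from 5 to 4 members, through *Csf2ra* (log2 -0.52, edgeR adjusted p = 0.0556), and changed no other number of members called. Depth limits *Csf3*, with 2 to 41 counts in the libraries where it was found.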
